A study of Homo sapiens with 12 samples.

Results

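OAS1, OASL, MX1, RSAD2 and ISG20 are antiviral genes whose transcription is induced by interferon. They were followed across 12 Affymetrix expression arrays of SF539 and SNB19, 2 established glioma cell lines. Every probe set annotated to 1 of the 5 genes and to no other gene was taken. This gave 7 of the 16376 deposited probe sets, 2 for OAS1, 2 for OASL and 1 each for MX1, RSAD2 and ISG20. The probe sets annotated to a single gene covered 8545 genes. No filter on low values was applied, so all 7 were tested. Probe sets of 1 gene share its transcript and are not independent of each other.

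The study asked what happens to gene expression when PARK2, the gene of the ubiquitin ligase parkin, is targeted by RNA interference. Each line was transfected with PARK2 siRNA#1, PARK2 siRNA#2 or a scramble siRNA by a lipid reagent and harvested 48 h later, with 2 arrays in each of the 6 groups. All groups had therefore received an siRNA, and no untransfected cells were among the arrays, so a difference between PARK2 siRNA and scramble does not say which of them moved. The PARK2 level was not analysed here. Nothing in the labels says that the duplicates were separate cultures, so each p-value reflects the spread between duplicates that may be technical ones. Array medians lay between 5.94 and 6.14 on the log2 scale and lower quartiles between 3.93 and 4.02. Duplicates were closest in the SNB19 PARK2 siRNA#2 pair and furthest apart in the SF539 PARK2 siRNA#2 pair, with a median SD of 0.0658 and 0.126 over probe sets. The arrays limit the precision by their number, and their values carry no detection call.

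All 5 genes are switched on by type I interferon. Its receptor activates kinases of the JAK family, and a complex of STAT proteins with IRF9 then binds a short element in the promoters of the responding genes. The proteins act on viral RNA in different ways. OAS1 is activated by double-stranded RNA and makes oligoadenylates that switch on the nuclease RNase L, while OASL has lost that activity in humans and strengthens signalling by the RNA sensor RIG-I. MX1 is a dynamin-like GTPase that traps viral ribonucleoproteins, RSAD2 (viperin) is a radical SAM enzyme that makes a chain-terminating nucleotide, and ISG20 is an exonuclease that degrades RNA.

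Promoter windows, 250 bases before to 50 after a transcription start in RefSeq on GRCh38.p14, were present for 4 of the 5 genes, 7 windows in all. The windows were searched on both strands for the core of the interferon-stimulated response element (TTTC, any 2 bases, TTTC) and for TTCNNNGAA, the core of the interferon-gamma activated site. Both were fixed with the design. Another string, GAAACGAAA, was chosen after the sequences were seen. Of 35116 windows of 300 bases 3.57% held the response element core, 7.66% held TTCNNNGAA and 0.162% held GAAACGAAA. The stretches with matches to the response element core or to GAAACGAAA follow, all on the plus strand and written 5′ to 3′ with the matches in capitals. They are chr12:112906882-112906961 for OAS1, chr21:41420559-41420588 and chr21:41426119-41426238 for the first and the second start of MX1, chr2:6865725-6865844 and chr2:6877622-6877681 for the first and the second start of RSAD2, and chr15:88638936-88639015 for ISG20.
OAS1: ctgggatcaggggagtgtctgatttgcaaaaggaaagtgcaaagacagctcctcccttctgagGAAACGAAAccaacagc
MX1, first start: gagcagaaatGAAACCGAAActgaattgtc
MX1, second start: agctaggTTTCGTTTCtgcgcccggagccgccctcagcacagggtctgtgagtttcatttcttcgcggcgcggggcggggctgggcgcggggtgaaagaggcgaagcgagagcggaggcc
RSAD2, first start: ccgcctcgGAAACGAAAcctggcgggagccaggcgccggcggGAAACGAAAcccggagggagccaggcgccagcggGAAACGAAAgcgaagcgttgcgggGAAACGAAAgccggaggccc
RSAD2, second start: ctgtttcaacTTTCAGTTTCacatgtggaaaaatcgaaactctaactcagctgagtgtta
ISG20: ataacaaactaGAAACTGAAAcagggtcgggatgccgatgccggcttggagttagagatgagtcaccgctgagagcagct

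The first RSAD2 window held GAAACGAAA 4 times, beginning 152, 118, 84 and 60 bases before the start site. OAS1 held it once, 17 bases before the start, and the second MX1 window once on the minus strand, 113 bases before. The response element core stood at base 12 of the first MX1 transcript, 145 bases before the second RSAD2 start and 69 bases before the ISG20 start. The third MX1 window, not printed, held this core 196 bases before its start, overlapping a TTCNNNGAA that began 189 bases before, and the OAS1 window held TTCNNNGAA 168 bases before its start. These matches are descriptions of letters, and binding was not measured.

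With the PARK2 siRNAs OAS1, OASL, RSAD2 and ISG20 fell moderately in SF539, where MX1 did not pass, and all 5 genes fell steeply in SNB19, to array percentiles between 13.4 and 47. In SF539, 6 of the 7 probe sets fell, where 4.05% of all probe sets were called lower and 9.09% in either direction. Their median change was -0.86 on the log2 scale, against -0.02 over all probe sets. In SNB19 all 7 fell, where 14.4% of all probe sets were called lower and 28.6% in either direction. Their median change was -6.19, against 0 over all probe sets, and 2 of them, for OAS1, ranked 2 and 5 among the 16376 from the lowest change. The calls are limma adjusted p under 0.05, two-sided, for the mean of both siRNAs minus scramble. Total RNA of a whole culture was measured, so fewer cells with a transcript and less of it per cell cannot be told apart.

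**Figure D1:**
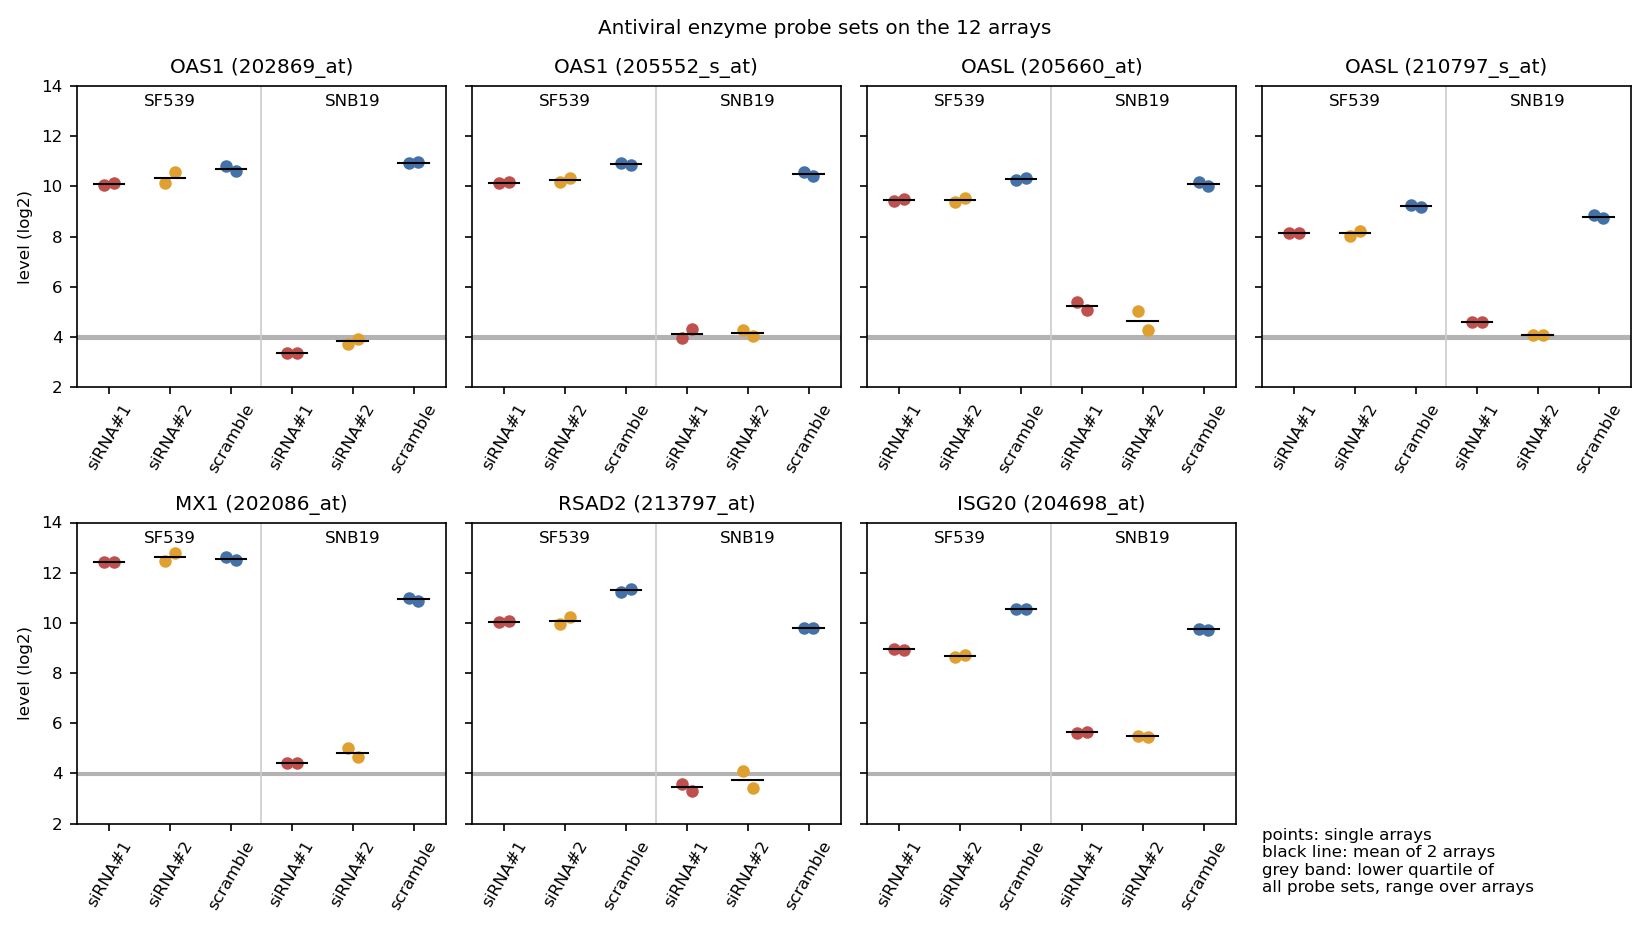
Level of each probe set on each array, log2 scale, by cell line and siRNA, with points for arrays, black lines for means of 2 arrays and a grey band for the range of the arrays' lower quartiles. In SF539 the groups lie closer together than in SNB19, with ISG20 means from 8.69 to 10.57. Group means stay at 8.14 or higher in SF539, while in SNB19 the PARK2 siRNA means are at most 5.64 and the scramble means at least 8.79.

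OAS1 was read by 2 probe sets. In SF539, 202869_at stood at 10.05 and 10.13 with PARK2 siRNA#1, at 10.12 and 10.56 with PARK2 siRNA#2 and at 10.80 and 10.62 with scramble. In SNB19 it stood at 3.38 and 3.36 with PARK2 siRNA#1, at 3.72 and 3.93 with PARK2 siRNA#2 and at 10.92 and 10.97 with scramble. The SF539 siRNA and scramble arrays were separated by a small margin, and the SNB19 siRNA arrays lay below the lower quartile of all probe sets. The change was -0.50 ± 0.12 in SF539 (SE, limma adjusted p = 0.0346) and -7.35 ± 0.12 in SNB19 (adjusted p = 1.56e-10), a level 1.41-fold lower and 163-fold lower than with scramble. With quantile normalization the SF539 change was -0.47 and did not pass (limma adjusted p = 0.0505). The SF539 call was lost without any 1 of the SF539 scramble arrays (adjusted p = 0.213 without replicate 1 and 0.0618 without replicate 2), the SF539 PARK2 siRNA#1 arrays (adjusted p = 0.0938 and 0.0748), the SNB19 scramble arrays (adjusted p = 0.057) or the SNB19 PARK2 siRNA#1 arrays (adjusted p = 0.0593), and with the SF539 arrays fitted alone (adjusted p = 0.164).

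The second OAS1 probe set, 205552_s_at, stood in SF539 at 10.12 and 10.16 with PARK2 siRNA#1, at 10.18 and 10.35 with PARK2 siRNA#2 and at 10.93 and 10.87 with scramble. SNB19 gave 3.95 and 4.31 with PARK2 siRNA#1, at 4.28 and 4.05 with PARK2 siRNA#2 and at 10.58 and 10.41 with scramble. In both lines all 4 siRNA arrays were below both scramble arrays. The change was -0.70 ± 0.12 in SF539 (limma adjusted p = 0.00596) and -6.34 ± 0.12 in SNB19 (adjusted p = 2.79e-10). Both OAS1 probe sets thus fell in both lines, but 202869_at changed by 1.00 more than 205552_s_at in SNB19 and by 0.20 less in SF539. From low to high, both probe sets placed the siRNA groups of SNB19 first and then the siRNA groups of SF539. The SNB19 siRNA groups differed by 0.45 by 202869_at, more than the sum of their SDs of 0.17, and by 0.04 by 205552_s_at, less than the sum of 0.41 and with overlapping ranges. The highest group was SNB19 scramble by 202869_at and SF539 scramble by 205552_s_at. The SF539 siRNA groups differed from each other by 0.25 and 0.13, less than the sum of their SDs, and so did SF539 with PARK2 siRNA#2 and the next group, SF539 scramble by 202869_at (0.37) and SNB19 scramble by 205552_s_at (0.23).

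OASL, the relative of OAS1 without synthetase activity, fell less far in SNB19. In SF539, 205660_at stood at 9.40 and 9.50 with PARK2 siRNA#1, at 9.36 and 9.54 with PARK2 siRNA#2 and at 10.27 and 10.35 with scramble. In SNB19 its values were 5.40 and 5.08 with PARK2 siRNA#1, at 5.02 and 4.29 with PARK2 siRNA#2 and at 10.16 and 10.02 with scramble. The siRNA arrays lay below the scramble arrays in both lines, and in SNB19 they remained above the lower quartile. The change was -0.86 ± 0.18 in SF539 (limma adjusted p = 0.0157) and -5.14 ± 0.18 in SNB19 (adjusted p = 1.83e-08). The SF539 call was lost without SF539 scramble replicate 1 or 2 (adjusted p = 0.0739 and 0.0782) and with array weights (adjusted p = 0.0855).

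The other OASL probe set, 210797_s_at, stood in SF539 at 8.16 and 8.15 with PARK2 siRNA#1, at 8.03 and 8.24 with PARK2 siRNA#2 and at 9.26 and 9.16 with scramble. In SNB19 it stood at 4.60 on both arrays with PARK2 siRNA#1, at 4.09 and 4.07 with PARK2 siRNA#2 and at 8.85 and 8.73 with scramble. Here too the siRNA and scramble arrays did not overlap in either line. The change was -1.06 ± 0.08 in SF539 (limma adjusted p = 0.000166) and -4.45 ± 0.08 in SNB19 (adjusted p = 2.79e-10), a level 2.09-fold lower and 21.9-fold lower. For both OASL probe sets the order from low to high was the siRNA groups of SNB19, the siRNA groups of SF539, SNB19 scramble and SF539 scramble. The siRNA groups of SF539 differed by less than the sum of their SDs by either probe set, and those of SNB19 by 205660_at.

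MX1, the GTPase, was the member that did not pass in SF539, although it fell far in SNB19. In SF539, 202086_at stood at 12.44 and 12.42 with PARK2 siRNA#1, at 12.45 and 12.78 with PARK2 siRNA#2 and at 12.63 and 12.50 with scramble. In SNB19 it stood at 4.41 and 4.40 with PARK2 siRNA#1, at 5.00 and 4.66 with PARK2 siRNA#2 and at 11 and 10.88 with scramble. In SF539 the PARK2 siRNA#2 arrays lay on both sides of the scramble arrays, at or above the percentile of 98.4 on every array, while in SNB19 MX1 lay at percentiles of at most 39.3 with the siRNAs and at least 93.3 with scramble. The change in SF539 was -0.04 ± 0.12, with a 95% interval from -0.30 to 0.22, and did not pass the test (limma adjusted p = 0.888). In SNB19 it was -6.32 ± 0.12 (adjusted p = 2.79e-10), an 80.0-fold lower level. From low to high the groups were SNB19 PARK2 siRNA#1, SNB19 PARK2 siRNA#2, SNB19 scramble and then the 3 SF539 groups, of which PARK2 siRNA#2 and scramble differed by less than the sum of their SDs.

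RSAD2, which makes the chain-terminating nucleotide, fell in both lines. In SF539, 213797_at stood at 10.04 and 10.07 with PARK2 siRNA#1, at 9.94 and 10.24 with PARK2 siRNA#2 and at 11.25 and 11.34 with scramble. SNB19 gave 3.6 and 3.30 with PARK2 siRNA#1, at 4.09 and 3.42 with PARK2 siRNA#2 and at 9.81 and 9.78 with scramble. All siRNA arrays were below the scramble arrays of their line, and 3 of the 4 SNB19 siRNA arrays lay below the lower quartile. The change was -1.22 ± 0.17 in SF539 (limma adjusted p = 0.00253) and -6.19 ± 0.17 in SNB19 (adjusted p = 4.68e-09), a level 2.33-fold and 73.0-fold lower. RSAD2 with PARK2 siRNAs in SF539 was still higher than RSAD2 with scramble in SNB19, by 0.27 for PARK2 siRNA#1, more than the sum of the SDs of 0.04.

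ISG20, the exonuclease, had the deepest decrease of the 5 genes in SF539 and the shallowest in SNB19. In SF539, 204698_at stood at 8.97 and 8.92 with PARK2 siRNA#1, at 8.65 and 8.73 with PARK2 siRNA#2 and at 10.57 on both arrays with scramble. In SNB19 its values were 5.63 and 5.64 with PARK2 siRNA#1, at 5.48 and 5.47 with PARK2 siRNA#2 and at 9.76 and 9.73 with scramble. The siRNA and scramble groups did not overlap in either line, and on the SNB19 siRNA arrays ISG20 lay at percentiles from 44.9 to 47.0, the highest of the members. The change was -1.75 ± 0.07 in SF539 (limma adjusted p = 1.98e-06) and -4.19 ± 0.07 in SNB19 (adjusted p = 1.56e-10), a level 3.36-fold and 18.3-fold lower. ISG20 was also the member whose 6 groups were all separated from their neighbours in level by more than the sum of the SDs. The order from low to high was SNB19 PARK2 siRNA#2, SNB19 PARK2 siRNA#1, SF539 PARK2 siRNA#2, SF539 PARK2 siRNA#1, SNB19 scramble and SF539 scramble.

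Each siRNA was also set against scramble alone. Within a line both comparisons use the same 2 scramble arrays, so their agreement is not independent. In SF539, 4 of the 7 probe sets fell with PARK2 siRNA#1, where 0.812% of all probe sets were called lower and 1.76% in either direction. With PARK2 siRNA#2 5 fell, where 5.98% were called lower and 13% in either direction. ISG20 changed by -1.62 ± 0.08 and -1.88 ± 0.08, RSAD2 by -1.24 ± 0.19 and -1.21 ± 0.19, OASL by 210797_s_at by -1.06 ± 0.10 and -1.07 ± 0.10 and OAS1 by 205552_s_at by -0.76 ± 0.13 and -0.64 ± 0.13. These 4 probe sets fell with both siRNAs, and OASL by 205660_at passed with PARK2 siRNA#2 alone, at a change of -0.86 for either siRNA (limma adjusted p = 0.065 and 0.022). OAS1 by 202869_at (-0.62 and -0.37) and MX1 (-0.13 and 0.05) passed with neither. Of these single-siRNA calls, RSAD2 and OAS1 205552_s_at with PARK2 siRNA#1 were lost without SF539 scramble replicate 1 or either SF539 PARK2 siRNA#1 array (adjusted p from 0.0684 to 0.17). With PARK2 siRNA#2, OAS1 205552_s_at was lost without SF539 scramble replicate 1 (adjusted p = 0.0671) and OASL 205660_at without any 1 of the 4 arrays compared (adjusted p from 0.0539 to 0.0821).

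In SNB19 all 7 probe sets fell with each siRNA, where 11.5% of all probe sets were called lower and 22.9% in either direction for PARK2 siRNA#1. For PARK2 siRNA#2 these shares were 13% and 25.8%. OAS1 by 202869_at changed by -7.57 ± 0.14 and -7.12 ± 0.14, MX1 by -6.53 ± 0.14 and -6.11 ± 0.14, RSAD2 by -6.34 ± 0.19 and -6.04 ± 0.19 and ISG20 by -4.11 ± 0.08 and -4.27 ± 0.08. Both siRNAs thus gave decreases for all members, and the group mean was lower with PARK2 siRNA#1 for OAS1, MX1 and RSAD2 and with PARK2 siRNA#2 for OASL and ISG20. Set against each other in SNB19, where 2.17% of all probe sets were called lower and 4.26% in either direction, 1 of the 7 passed. OASL by 210797_s_at was lower with PARK2 siRNA#2 than with PARK2 siRNA#1 by a change of -0.52 ± 0.10 (limma adjusted p = 0.0156), and by 205660_at by -0.59 ± 0.20 (adjusted p = 0.164). The call was lost without any 1 of the 4 arrays compared (adjusted p from 0.1 to 0.118). OAS1 by 202869_at (0.45, 95% interval 0.14 to 0.77) and MX1 (0.42, 0.12 to 0.73) had unadjusted p = 0.00975 and 0.0113 in the limma fit and did not pass after adjustment. OAS1 passed without SF539 PARK2 siRNA#2 replicate 1 or 2 (adjusted p = 0.0233), and OASL by 205660_at without SNB19 PARK2 siRNA#2 replicate 1 (a difference of -0.95, adjusted p = 0.0251).

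In SF539 none of the 7 differed between the siRNAs in the limma test, where 1.68% of all probe sets were called, and 1 had an unadjusted p under 0.05. This was ISG20, lower with PARK2 siRNA#2 by a difference of -0.25 ± 0.08 (95% interval -0.43 to -0.07, limma adjusted p = 0.129). OAS1 by 202869_at, at a difference of 0.25 (-0.07 to 0.57), passed without SF539 PARK2 siRNA#2 replicate 1 (0.47, adjusted p = 0.0234). The intervals of the other members were -0.17 to 0.43 for OAS1 by 205552_s_at, -0.45 to 0.46 and -0.23 to 0.20 for OASL, -0.11 to 0.49 for MX1 and -0.40 to 0.46 for RSAD2.

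**Figure D2:**
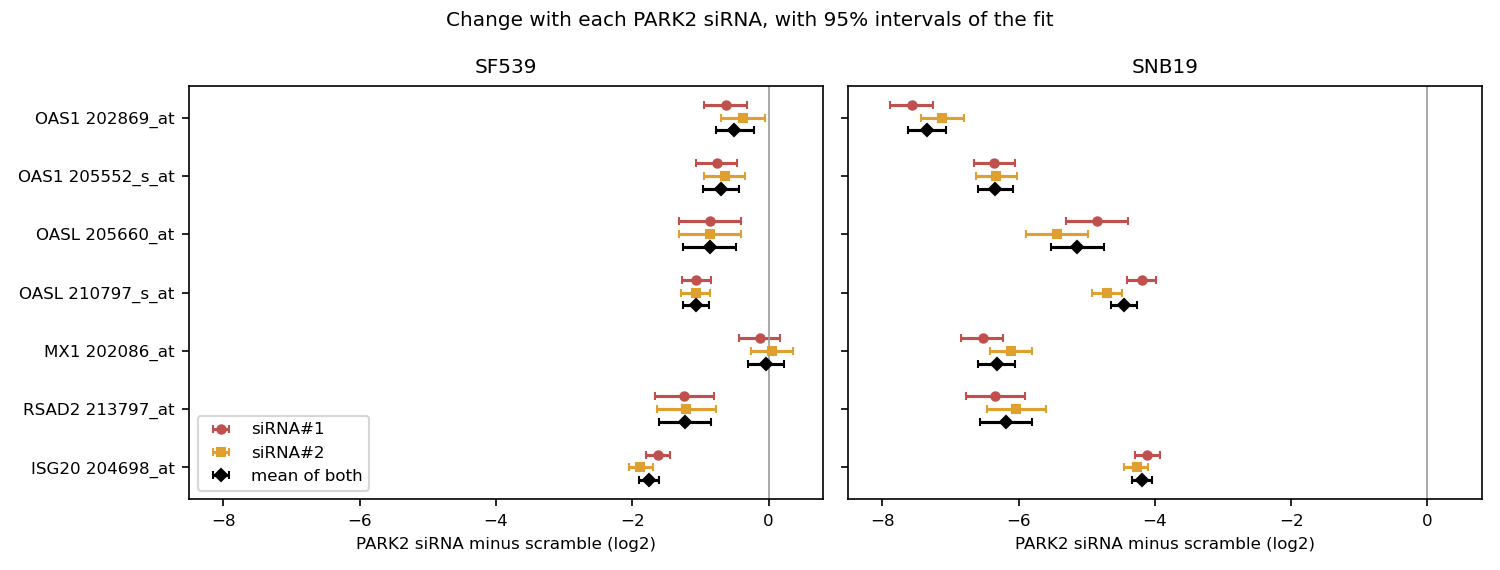
Change of each probe set with PARK2 siRNA#1 (circles), PARK2 siRNA#2 (squares) and the mean of both (diamonds) minus scramble, log2 scale, with 95% intervals of the limma fit. The SF539 changes of the mean lie between -1.75 and -0.04 and those in SNB19 between -7.35 and -4.19, on the same axis.

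The change in SF539 was smaller than that in SNB19 for every member. The test of the difference, SF539 minus SNB19, passed for 7 of the 7 probe sets, where 8.57% of all probe sets were called higher and 16.2% in either direction. It was 6.85 ± 0.17 for OAS1 by 202869_at (SE, limma adjusted p = 1.13e-08), 6.28 ± 0.17 for MX1 (adjusted p = 1.43e-08), 4.97 for RSAD2 (adjusted p = 6.42e-07) and 2.44 for ISG20 (adjusted p = 1.97e-07). The difference was thus widest for OAS1 and MX1 and narrowest for ISG20. As a share of the SNB19 change, the SF539 change was 0.629% for MX1, 6.76% and 11% for OAS1, 16.7% and 23.9% for OASL, 19.7% for RSAD2 and 41.8% for ISG20. Since the SNB19 change is the denominator, the shares are given as a description.

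Without the PARK2 siRNAs the lines were much closer, and the 5 genes were high in both. With scramble, 5 of the 7 probe sets were higher in SF539 than in SNB19, where 22.7% of all probe sets were called higher and 44.4% in either direction. MX1 was higher by 1.62 ± 0.14 (limma adjusted p = 5.7e-06), at a mean of 12.56 ± 0.09 in SF539 and 10.94 ± 0.08 in SNB19 (SD, n = 2 each). RSAD2 was higher by 1.5 (adjusted p = 0.000121), ISG20 by 0.82 (adjusted p = 1.55e-05), OASL by 210797_s_at by 0.42 (adjusted p = 0.00485) and OAS1 by 205552_s_at by 0.41 (adjusted p = 0.0304). The other probe sets of OASL and OAS1 did not pass, OASL 205660_at with a difference of 0.22 (-0.23 to 0.67) and OAS1 202869_at with one of the opposite sign, -0.23 (-0.55 to 0.09). The OAS1 call was lost without SNB19 scramble replicate 2 (adjusted p = 0.167) or SF539 scramble replicate 1 or 2 (adjusted p = 0.115 and 0.0689). With the mean of the probe sets of each gene neither OAS1 (0.09, adjusted p = 0.536) nor OASL (0.32, adjusted p = 0.0577) passed.

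With the PARK2 siRNAs all 7 probe sets were higher in SF539 than in SNB19, where 25% of all probe sets were called higher and 48.9% in either direction. The difference was 7.90 ± 0.10 for MX1, 6.62 and 6.05 for OAS1, 6.47 for RSAD2, 4.50 and 3.81 for OASL and 3.26 for ISG20. MX1 was thus 240-fold higher in SF539 than in SNB19 with the PARK2 siRNAs and 3.08-fold higher with scramble. In SNB19 the siRNA levels of OAS1 and RSAD2 lie near or below the lower quartile, where an array resolves levels poorly. The same holds for OASL by 210797_s_at with PARK2 siRNA#2, at a mean of 4.08. The fold changes of these genes are those of the deposited values.

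**Figure D3:**
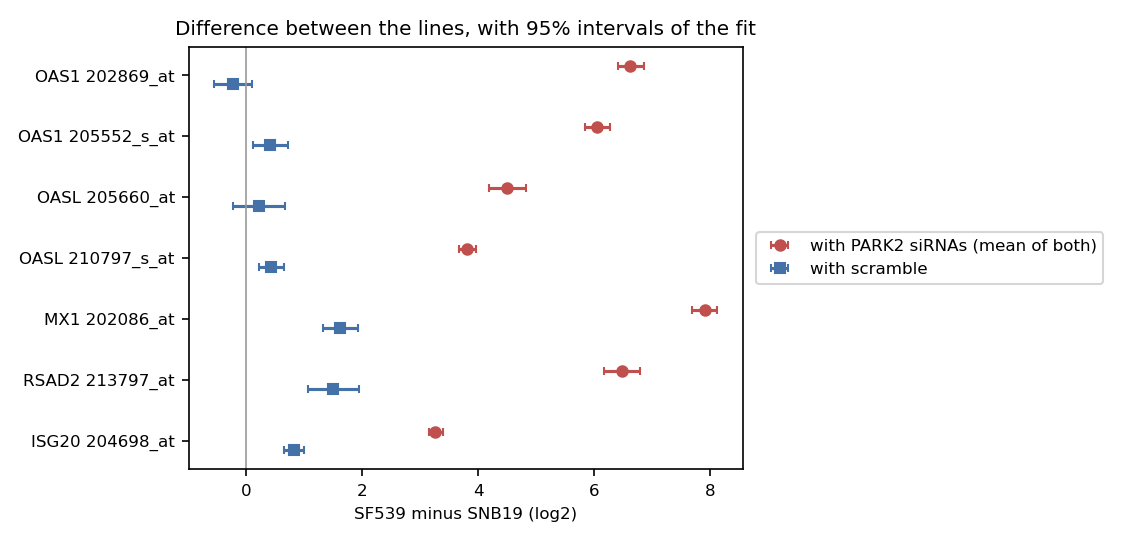
Difference of each probe set between the lines, SF539 minus SNB19, log2 scale, with PARK2 siRNAs (circles, mean of both) and with scramble (squares), with 95% intervals of the limma fit. The differences with PARK2 siRNAs lie between 3.26 and 7.90 and those with scramble between -0.23 and 1.62.

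The 5 genes shared their broad pattern and differed in detail. Likeness was measured as the root mean square difference of 2 genes' log2 profiles over the 12 arrays, each gene centred on its own mean and read by its brightest probe set. Its points share arrays and the large difference of the SNB19 siRNA groups, so it is given as a description. Among the 5, OAS1 and RSAD2 were most alike, at 0.41, and MX1 and ISG20 least, at 1.93. Of these, MX1 changed by -6.32 in SNB19 and did not pass in SF539, and ISG20 changed by -4.19 in SNB19 and by -1.75 in SF539.

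Among the other genes, the nearest profile to OAS1 was that of BST2, the membrane protein that tethers budding virus particles, at 0.31. Nearest to OASL were IFI6 at 0.38 and ISG15, the ubiquitin-like protein, at 0.40. Nearest to MX1 were RSAD2 at 0.65, BST2 at 0.66 and IFI27 at 0.79. RSAD2 had OAS1, BST2 and the immunoproteasome subunit PSMB9 as its nearest genes, at 0.41, 0.43 and 0.58. ISG20 was nearest to UBE2L6, the conjugating enzyme of ISG15, at 0.49, and to TLR3, the endosomal sensor of double-stranded RNA, and the complement factor gene CFB, both at 0.50. The levels of BST2 averaged 11.90 and 11.98 with PARK2 siRNA#1 and #2 and 12.11 with scramble in SF539, and 5.22, 5.32 and 11.79 in SNB19. The mean profile of the 5 was nearest to MX2, IFITM1, PSMB9, BST2 and OAS2, at 0.37 to 0.55, among 8540 genes.

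Of 9 relatives and neighbours of the members 4 were measured. In SF539 none passed, where 4.05% of all probe sets were called lower and 5.03% higher, and in SNB19 2 fell and 1 rose, where 14.4% were called lower and 14.1% higher. OAS2, the second synthetase, fell by 4.39 on the log2 scale in SNB19 (limma adjusted p = 1.32e-08), and MX2, the second Mx GTPase, fell by 5.04 (adjusted p = 3.19e-08). OAS2 averaged 4.01 and 4.50 with PARK2 siRNA#1 and #2 and 8.64 with scramble there, and MX2 averaged 4.48, 4.56 and 9.56. In SF539 neither passed (changes of -0.32 and -0.24, adjusted p = 0.209 and 0.493), although both fell without SF539 PARK2 siRNA#2 replicate 2 (-0.46 and -0.44, adjusted p = 0.017 and 0.0324). ABCE1, first described as an inhibitor of RNase L, rose in SNB19 by 0.71 (adjusted p = 6.26e-05) and changed by -0.05 in SF539 (adjusted p = 0.734). ISG20L2, a nuclease related to ISG20, changed by -0.09 in SF539 and 0.07 in SNB19 and passed in neither line (adjusted p = 0.558 and 0.582), at 9.20 to 9.47 in all groups.

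Of 17 interferon signalling genes 14 were measured. In SF539, 2 fell and none rose, where 4.05% of all probe sets were called lower and 5.03% higher, with a median of -0.05 against -0.02 over all probe sets. In SNB19, 7 fell and 3 rose, where 14.4% were called lower and 14.1% higher, with a median of -0.27 against 0. IFNB1, the interferon beta gene, fell by 1.88 ± 0.22 in SF539 (limma adjusted p = 0.0011), averaging 4.72 ± 0.11 and 4.76 ± 0.31 with PARK2 siRNA#1 and #2 and 6.62 ± 0.57 with scramble (SD, n = 2 each). In SNB19, where it was named after its values were seen, it fell by 1.39 ± 0.22 (adjusted p = 0.00103), averaging 3.98 and 3.87 with PARK2 siRNA#1 and #2, near the lower quartile, and 5.31 with scramble. The change of IFNB1 in SF539 minus that in SNB19 was -0.49 ± 0.31 (limma adjusted p = 0.338). This difference did not pass, unlike that of the 5 enzymes, and its sign was opposite to theirs. IRF9, the DNA-binding partner of the STAT complex, fell by 2.87 in SNB19, and IRF1 fell by 1.86. SOCS1, a feedback inhibitor of the JAK kinases, fell by 1.39 there, while JAK1 rose by 0.62 (adjusted p from 2.81e-07 to 0.000358 over these 4). IRF7, also named in SNB19 after its values were seen, was among the 3 rises, by 0.64 (limma adjusted p = 0.0192). It averaged 4.01 and 4.40 with PARK2 siRNA#1 and #2 and 3.56 with scramble, around the lower quartile. In SF539 JAK2 fell by 0.48 (adjusted p = 0.0477), a call lost without any 1 of the arrays other than those of SNB19 PARK2 siRNA#1 and SF539 PARK2 siRNA#2 replicate 1 (adjusted p from 0.0705 to 0.18), and IRF7 and JAK1 did not pass (-0.59 and 0.27, adjusted p = 0.0633 and 0.0719). Without SF539 scramble replicate 2 IRF7 fell (-0.83, adjusted p = 0.0404), and without SF539 PARK2 siRNA#2 replicate 1 JAK1 rose (0.33, adjusted p = 0.00811), which made the count of rises 1.

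Of 12 RNA-sensing genes 8 were measured. In SF539, 1 fell and 1 rose, where 4.05% of all probe sets were called lower and 5.03% higher, with a median of -0.10 against -0.02 over all probe sets. In SNB19, 6 fell and none rose, where 14.4% were called lower and 14.1% higher, with a median of -0.89 against 0. TLR3 fell by 0.65 in SF539 (limma adjusted p = 0.0242) and fell by 4.04 in SNB19 (adjusted p = 3.05e-08). IFIH1, which encodes the RNA sensor MDA5, changed by -0.43 in SF539 (adjusted p = 0.0624) and fell by 2.40 in SNB19 (adjusted p = 4.28e-07). EIF2AK2, the kinase PKR that halts translation on double-stranded RNA, changed by 0.29 in SF539 (adjusted p = 0.0855) and fell by 1.24 in SNB19. The RNA editing enzyme gene ADAR fell by 1.14 in SNB19 (adjusted p = 2.33e-05), and the kinase gene IKBKE rose by 0.34 in SF539 (adjusted p = 0.0239). The SF539 calls of TLR3 and IKBKE were each lost without SF539 scramble replicate 2 or either SF539 PARK2 siRNA#1 array, and TLR3 also without scramble replicate 1 (adjusted p from 0.0538 to 0.146). Without SF539 PARK2 siRNA#2 replicate 1 IFIH1 fell (-0.52, adjusted p = 0.0117) and EIF2AK2 rose (0.37, adjusted p = 0.00888) in SF539, and leaving out 1 array moved the counts there between 0 and 2 in each direction. With the mean of its probe sets IKBKE changed by 0.16 (adjusted p = 0.202).

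Of 37 other antiviral effectors 31 were measured. In SF539, 6 fell and 1 rose, where 4.05% of all probe sets were called lower and 5.03% higher, with a median of -0.20 against -0.02 over all probe sets. In SNB19, 30 fell and none rose, where 14.4% were called lower and 14.1% higher, with a median of -3.59 against 0. IFI27, BST2, IFIT3 and IFI6 fell in SNB19, with changes of -8.66, -6.52, -6.02 and -5 (limma adjusted p from 6.23e-12 to 1.56e-10), and the 1 gene that did not pass, named after its values were seen, was LAMP3, with a change of 0.02. In SF539 the nuclear body gene SP110 and the ubiquitin ligase genes TRIM22 and TRIM5 fell, with changes of -0.67, -0.59 and -0.45, and the GTPase gene GBP2 rose by 0.62 (adjusted p from 0.0011 to 0.0111). The SF539 count of decreases was 3 without either SF539 scramble array or either PARK2 siRNA#1 array and 10 without SF539 PARK2 siRNA#2 replicate 2, and GBP2 lost its call without SF539 scramble replicate 1 or 2 (adjusted p = 0.0613 and 0.0568). These effectors thus moved with the 5 enzymes in SNB19, and in SF539 their median change, -0.20, was nearer to that of all probe sets than the -0.86 of the enzymes. Some of the 31 were low in every SF539 group, where a decrease can hardly be read. IFIT1 and LAMP3, looked up after their values were seen, averaged 2.85 to 3.04 and 3.55 to 3.75 there, below the lower quartile. IFIT3 averaged 4.58 to 4.70 in SF539, against 11.73 with scramble in SNB19.

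**Figure D4:**
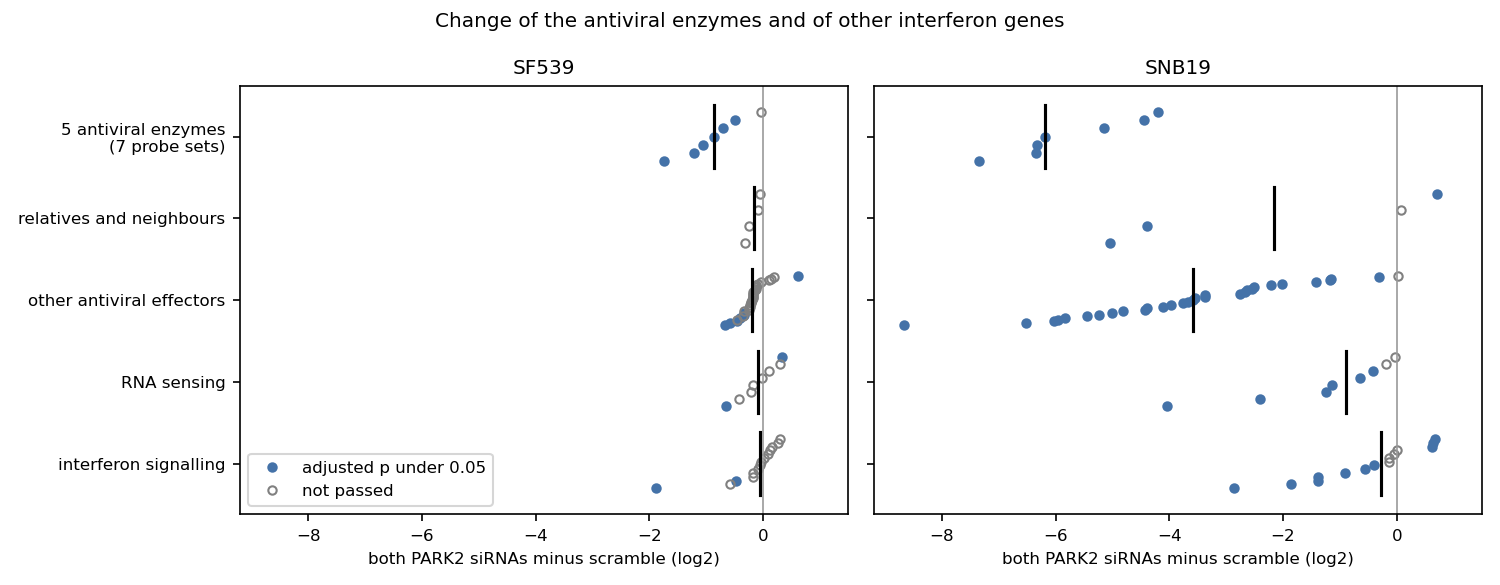
Change with both PARK2 siRNAs minus scramble, log2 scale, for the 7 probe sets of the 5 enzymes and for the genes of 4 lists, with filled points for limma adjusted p under 0.05 and black bars for medians. In SNB19 30 of 31 other effectors fell, and in SF539 6 of 31 did.

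Markers of other cell types were read on the same arrays. In all groups 0 of 7 measured leukocyte genes and 0 of 4 endothelial genes stood above the array median, and the leukocyte genes averaged 4.09 to 4.25, near the lower quartile. Of 4 epithelial genes 1 stood above it. In these lists CSF1R rose by 0.56 in SF539, and VWF and KRT19 rose by 0.52 and 1.26 and KRT18 changed by -0.59 in SNB19, all with adjusted p under 0.05. Of 7 measured glial and glioma genes 2, VIM and CD44, stood above the array median in SF539, where the list averaged 6.33 to 6.42 on the siRNA arrays and 6.52 to 6.63 on the scramble arrays. GFAP, S100B, SOX2, FABP7 and OLIG2, markers of glial cells, were below it there. In SNB19, 6 of the 7 stood above it, all but OLIG2, and the list averaged 9.87 to 10.04 on the siRNA arrays and 9.04 to 9.17 on the scramble arrays. GFAP, FABP7 and S100B rose there by 3.58, 1.33 and 1.00 (limma adjusted p from 1.28e-07 to 0.000686, brightest probe sets) on the arrays on which the 5 enzymes fell. The part of these marker changes in the decreases was not tested.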

How the data were processed

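The authors deposited log2 values, for which the submitters' processing notes name Partek. How probes were background-corrected, normalized and summarized, and on which genome build, was not given in the sources used here. A probe set was named where the platform's gene table gave it 1 gene (14038 of 16376, with 792 holding several and 1546 none), and the symbols of 14028 were updated by Entrez identifier. The main model, in limma 3.58.1 under R 4.3.3 (lmFit, then eBayes), had 1 term for each of the 6 groups and covered all probe sets on all 12 arrays (6 residual and 3.88 prior degrees of freedom), with two-sided p-values adjusted over all probe sets by Benjamini-Hochberg and a threshold of 0.05. Errors of changes are standard errors of that fit and errors of levels are SDs. A listed gene was read by the probe set with the highest mean, and up to 4 genes per line with the smallest p were named from each list. Members and lists were chosen with earlier results of these data known. Replicate numbers did not pair the arrays: deviations of same-numbered arrays correlated between -0.20 and 0.095 over 15 pairs of groups. On simulated data with 16376 probe sets, 74.6% of 1.5-fold, 97.0% of 2-fold and 100% of 4-fold changes were recovered for the SNB19 comparison with both siRNAs and 68.7%, 100% and 100% for that in SF539, with 8 and 10 false calls among 189 each. The simulation changed 200 probe sets and gave each probe set the same normal noise in all groups. In the deposited data more probe sets were called and the SF539 PARK2 siRNA#2 duplicates lay further apart, so recovery there may differ. Plots used matplotlib 3.10.9.

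Alternatives were quantile normalization, median centring, leaving out the dimmest 40% of probe sets, the brightest probe set or the mean of probe sets per gene, a trended robust prior, array weights, 1 line alone, a replicate block and leaving out each array.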

Additional observations from a re-analysis of the deposited data

Results flagged for a closer look

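The PARK2 siRNA effect differed between the lines for every member, by the test of the difference itself. In SF539 minus SNB19 it was 6.85 and 5.64 for the OAS1 probe sets 202869_at and 205552_s_at and 4.28 and 3.39 for the OASL probe sets 205660_at and 210797_s_at on the log2 scale. It was 6.28 for MX1, 4.97 for RSAD2 and 2.44 for ISG20 (limma adjusted p from 1.13e-08 to 2.26e-06 over the 7). All 4 PARK2 siRNA arrays of SNB19 lay below both scramble arrays of that line for each of the 7 probe sets, and in SF539 this held for 6 of them, MX1 being the other one. Groups of 2 arrays are too small for a test of single arrays against their group.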

How the results depend on the processing

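The members gave 77 results, each set under up to 21 alternatives. Of 1574 alternative values 1499 kept direction and call, 39 lost the call, 21 gained it and 15 reversed. The 7 decreases in SNB19, with both or either siRNA, and the 7 differences of effect between lines kept direction and call under every alternative run. The reversals were of small differences. MX1 in SF539 changed by 0.02 and 0.04 without SF539 scramble replicate 1 and siRNA#2 replicate 1 (-0.12 to 0.04 without any 1 array), and its change with siRNA#2 was -0.01 and -0.11 without scramble replicate 2 and siRNA#2 replicate 2 (-0.11 to 0.22). Between the siRNAs in SF539, OASL 205660_at gave -0.04 with quantile normalization, 0 with median centring, -0.01 with the mean of probe sets and -0.09 to 0.09 without 1 array. Without 1 array OASL 210797_s_at gave -0.13 to 0.09 and RSAD2 -0.12 to 0.18 there, and in SNB19 OAS1 205552_s_at gave -0.14 to 0.21 and RSAD2 -0.03 to 0.63. With the mean of probe sets OAS1 differed between the scramble groups by 0.09 and ISG20L2 in SNB19 changed by -0.05. The cause was not tested.

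Member counts between the siRNAs in SNB19 were 0 with the brightest probe sets, 3 with array weights and 2 with the line alone, against 1. In SF539 the count was 1 for siRNA#1 with the line alone, against 4, and 2 for siRNA#2 with array weights, against 5. Leaving out 1 array gave 7 in SNB19 for both and each siRNA and for the differences of effect and of siRNA groups between lines, 0 to 2 between the siRNAs in SNB19, 4 to 6 for both siRNAs in SF539, 2 to 5 for siRNA#1, 3 to 5 for siRNA#2, 0 to 1 between the siRNAs and 4 to 5 between the scramble groups.

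The share of all probe sets called moved more. With the dimmest 40% left out it was 45.9%, 38.5%, 42.0% and 8.46% in SNB19 (both siRNAs, siRNA#1, siRNA#2, siRNA#2 against siRNA#1), 17.5%, 5.11%, 24.8% and 4.16% in SF539 and 28.4% for the difference of effect. With array weights it was 12.3% between the siRNAs in SNB19 and 5.70%, 3.57%, 4.13% and 0.366% in SF539. With 1 line alone it was 9.39% between the siRNAs in SNB19 and 1.82%, 0.0183%, 3.21% and 0.0183% in SF539. For siRNA#1 in SF539 and for siRNA#2 against siRNA#1 there it was 2.73% and 2.72% with the brightest probe sets and 2.95% and 2.67% with a trended robust prior. Leaving out 1 array gave 17.3% to 35.4%, 14.2% to 30.1%, 16.0% to 32.6% and 1.10% to 8.94% in SNB19, 4.15% to 18.7%, 0.0855% to 6.31%, 7.34% to 24.6% and 0.0244% to 20.7% in SF539, 9.29% to 25.8% for the difference of effect, 35.5% to 49.0% between the scramble groups and 44.1% to 51.0% between the siRNA groups.

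Median centring moved the median of all probe sets in SNB19 to 0.13, and the share of higher calls there from 49.5% to 70.4% (67.8% against 49.8% for siRNA#1, 71.0% against 49.4% for siRNA#2). It gave 42.5% against 55.4% in SF539 (40.4% against 54.0% for siRNA#1, 41.9% against 54.1% for siRNA#2), 24.9% against 52.9% for the difference of effect and 68.1% against 51.2% between the scramble groups. The replicate block gave 6 member decreases in SF539 with 8.04% of all probe sets called and changed no member call. Since the numbers do not pair the arrays, the fit without it is the one reported.

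Each group holds 2 arrays and each line is a single established line. The SNB19 siRNA levels lie at array percentiles from 13.4 to 47. Those of OAS1 and RSAD2, and of OASL by 210797_s_at with siRNA#2, are near or below the lower quartile. Whether the bottom of the range bounds the decreases there was not tested. The SF539 calls of OAS1 202869_at and OASL 205660_at were lost when any of several single arrays was left out. Over all alternatives their changes stayed at -0.61 to -0.39 and at -0.96 to -0.82.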
